A study of Arabidopsis thaliana with 9 samples.

Results

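A set of 87 probe sets stood lower in rosette leaves of both dexamethasone (dex) treated groups than in mock-treated leaves, and by a similar amount in each. They were picked from 22746 probe sets of the Affymetrix ATH1 array, control probe sets left out, by a rule on log2 intensity with values under 5 raised to 5. Both dex group means had to lie 0.7 or more below the mock mean (1.62-fold), the dex group means less than 0.4 apart (1.32-fold), and all 6 dex arrays below all 3 mock arrays. The mock mean intensity had to exceed 80. In all 89 probe sets met these conditions, and those of RR16 and XTH16 were left out. Of the 87 members, 45 are listed with 1 gene each and 42 are unnamed in the annotation used here.

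The groups, 3 arrays each, were the GVG DVL4 line with dex (called DVL4 dex), a line with the empty GVG construct and dex (empty vector dex), and the GVG DVL4 line with mock treatment (mock). Dex was given at 30 µM (written as um in the labels) in water to Columbia plants with 6 expanded rosette leaves, grown at 22 °C under 16 h days. The largest leaf of 20 plants was taken 10 h later and pooled into each biological replicate. All groups carry the GVG construct, with 1 line for the empty vector and 1 for DVL4. Mock-treated empty vector leaves were not analysed here. Empty vector dex and mock leaves thus differ in line and in dex at once, and DVL4 dex and mock leaves in dex and in DVL4 induction, so dex and line effects cannot be told apart. The empty vector with dex was included to account for responses to dex alone.

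GVG is a chimeric transcription factor that joins a GAL4 DNA-binding domain, a VP16 activation domain and the steroid-binding domain of a glucocorticoid receptor, and dex switches it on in every cell that carries it. DVL4 is a small peptide of the DEVIL family, whose overexpression alters leaf and fruit shape. Leaf mRNA holds transcripts of nuclear genes and of the plastid genome, which encodes part of the photosynthetic apparatus, of the plastid ribosome and of the plastid RNA polymerase.

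The DVL4 transcript itself was not analysed here, since no probe set is listed with that gene alone. Array medians ran from 75.4 to 84.1. The leaf genes RCA, PRK and LHCB4.1 averaged between 8083 and 10647 in each group, and the root genes PYK10, EXPA7 and EXPA18 between 14.3 and 39.2. The trichome gene TRY averaged 110 in DVL4 dex, 235 in empty vector dex and 256 in mock leaves, and the guard cell gene FMA 101, 116 and 144, and the part of such cells in the members' differences was not tested. DVL4 dex replicates 1 and 2 and empty vector dex replicate 1 stood apart in RNA control signals. Their ratio of 5′ to 3′ signal was 0.228 to 0.278 for the added dap transcript, against 0.601 to 1.325 on the other 6 arrays, and 0.226 to 0.330 for actin, against 0.422 to 0.612. These 3 are called low-5′ arrays below. No mock array is among them, so differences from mock are also given without them, which leaves 1 DVL4 dex, 2 empty vector dex and 3 mock arrays. In whole leaves, fewer cells of a type and less RNA per cell cannot be told apart.

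The 87 members had group mean intensities of 34.5 to 2788 in DVL4 dex, 32.1 to 2804 in empty vector dex and 80.1 to 4572 in mock leaves, with medians of 150.0, 155 and 314. Their median log2 difference from mock was -1.09 in DVL4 dex (2.13-fold lower) and -0.93 in empty vector dex (1.90-fold lower). Over all 22746 probe sets the medians were 0.01 and 0.02. These differences chose the members and are a description. The 2 comparisons with mock also share the mock arrays. In 28 members, 17 of them named, both differences were 2-fold or more, and in 3 at least one was 4-fold or more.

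Without the low-5′ arrays the members' median difference was -0.82 in DVL4 dex and -0.86 in empty vector dex leaves, with all-probe-set medians of 0.00 in both. All 87 members remained below mock in both dex groups, which the rule's separation of arrays had fixed in advance. For 55 of them, 28 named, both differences were still 0.7 or more. The smallest difference left was -0.14 in DVL4 dex and -0.25 in empty vector dex, both of atpI.

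**Figure D1:**
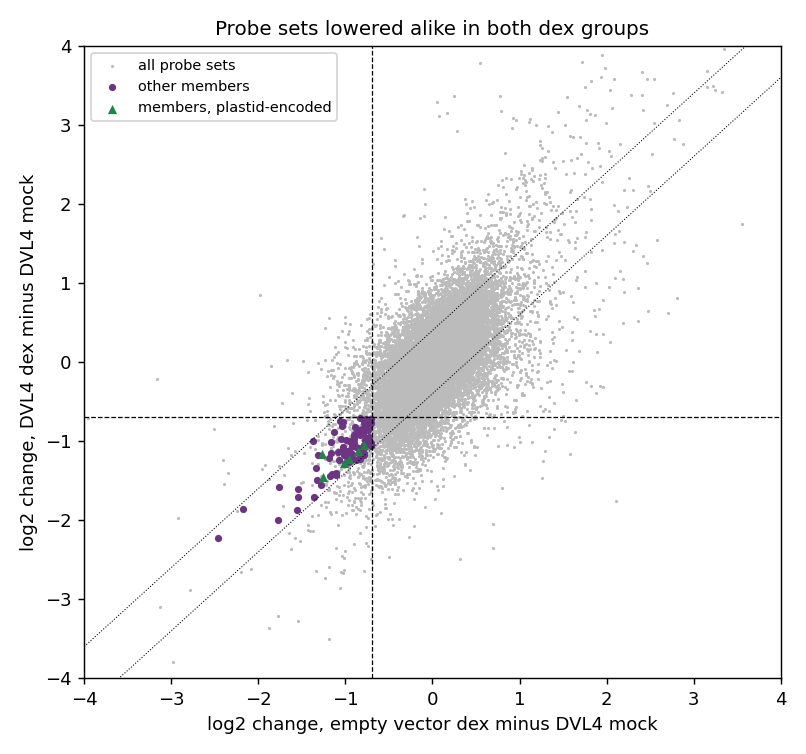
Log2 change of each probe set in empty vector dex minus mock (x axis) and in DVL4 dex minus mock (y axis). All 22746 are in grey, named plastid-encoded members are green triangles, and the other members, unnamed ones included, are purple. Dashed lines mark -0.7, dotted lines a distance of 0.4 between the dex groups, and 28 probe sets lie beyond the axis limits of 4. The members lie in the lower left band between the dotted lines, and grey points there failed the separation or brightness condition or are RR16 and XTH16, which were left out by name.

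In limma's fit over all 9 arrays (adjusted p under 0.05, called below), 80 members were called lower in DVL4 dex than in mock, where 10.9% of all probe sets were. In empty vector dex 56 members were called lower than in mock, beside 2.05% of all. The rule used both contrasts, and nothing is read from these counts. Without the low-5′ arrays, which leaves 1 DVL4 dex array, the members' median differences were -0.82 and -0.86, as given above. Without mock replicate 2 or 3 the empty vector count was 35 or 29, where 178 or 113 of all probe sets were called lower. Over all 9 arrays 467 of all probe sets were called lower in that comparison.

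The separation of arrays, which 7.78% of all probe sets show, was wide for some members and thin for others. The gap between the lowest mock array and the highest dex array had a median of 0.48 on the log2 scale and was at least 0.5 in 40 members. It was widest for AT5G64850, at 1.06, and under 0.2 in 17 members. It was 0.002 for AT1G25500 and ORA47, so their place in the set rests on a gap of that size.

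Between the dex groups, which the rule held within 0.4, 68 members were lower and 19 higher in DVL4 dex than in empty vector dex, with a median log2 difference of -0.15. Among all probe sets 50.3% were lower. Limma called 0 members in this comparison, against 10.2% of all probe sets, and 6 members had an unadjusted p under 0.05, against 23.9%. Without the low-5′ arrays, 2 of which are DVL4 dex arrays, this median was 0.05.

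Ranked by the smaller of the 2 differences from mock, AT1G66760, AT5G48490, AT5G64850 and AT1G60730 led the named members. AT1G66760, of the MATE family of efflux transporters, had 24.8, 39.96 and 53.2 in DVL4 dex leaves, 39.0, 30.0 and 27.3 in empty vector dex leaves and 278, 95.6 and 205 in mock leaves (replicates 1 to 3, also below). The dex and mock arrays did not overlap, as the rule required, but the mock arrays spread more widely than the dex arrays of either group. Its log2 difference from mock was -2.23 ± 0.40 in DVL4 dex and -2.47 ± 0.40 in empty vector dex (SE, limma), or -1.73 and -2.62 without the low-5′ arrays. AT5G48490, which encodes a lipid transfer protein related to the defence signalling protein DIR1, had 564, 641 and 862 in DVL4 dex leaves, 1068, 595 and 684 in empty vector dex leaves and 1788, 2284 and 2672 in mock leaves. The highest dex value was on a low-5′ array, and the differences were -1.71 ± 0.24 and -1.55 ± 0.24, or -1.36 and -1.80 without those arrays. AT1G60730, an aldo-keto reductase gene, had 47.1, 33.0 and 74.9 in DVL4 dex leaves, 24.7, 67.2 and 69.4 in empty vector dex leaves and 139, 113 and 120.1 in mock leaves. Its 3 lowest values were those of the low-5′ arrays, and its differences of -1.34 ± 0.41 in each dex group became -0.72 and -0.85 without them.

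Named members without a role given here included some of the tightest. AT5G64850 had 116, 109 and 138 in DVL4 dex leaves, 130.3, 169 and 165 in empty vector dex leaves and 353, 395 and 439 in mock leaves. AT1G27030 had 267, 236 and 307 in DVL4 dex leaves, 387, 294 and 303 in empty vector dex leaves and 835, 671 and 874 in mock leaves. Both were lower by more than 1.2 on the log2 scale in each dex group with or without the low-5′ arrays, at -1.51 and -1.24 for AT5G64850 and -1.36 and -1.40 for AT1G27030 without them. AT3G55420 had 151, 154 and 205 in DVL4 dex leaves, 175, 203 and 218 in empty vector dex leaves and 363, 388 and 376 in mock leaves and stood at -0.87 and -0.84 without the low-5′ arrays. AT2G18210 had 66.4, 54.1 and 59.4 in DVL4 dex leaves, 56.4, 59.5 and 65.2 in empty vector dex leaves and 104, 137 and 98.6 in mock leaves. In this last gene the dex groups were almost level with each other, at -0.91 ± 0.17 and -0.90 ± 0.17, or -0.92 and -0.85 without the low-5′ arrays.

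AT1G11850 was less even. It had 113, 288 and 486 in DVL4 dex leaves, 180.0, 331 and 379.6 in empty vector dex leaves and 614, 748 and 771 in mock leaves. Its DVL4 dex arrays spread widely, and the difference from mock there was -1.50 ± 0.46 over all arrays and -0.54 without the low-5′ arrays. AT1G75190 had 75.2, 92.3 and 99.9 in DVL4 dex leaves, 67.8, 113 and 99.3 in empty vector dex leaves and 179, 202 and 179.6 in mock leaves. AT3G25680 had 72.3, 48.1 and 81.3 in DVL4 dex leaves, 44.0, 87.3 and 101 in empty vector dex leaves and 148, 119 and 170.2 in mock leaves. With those arrays left out, AT1G75190 stood at -0.90 and -0.81, and AT3G25680 at -0.83 and -0.62.

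**Figure D2:**
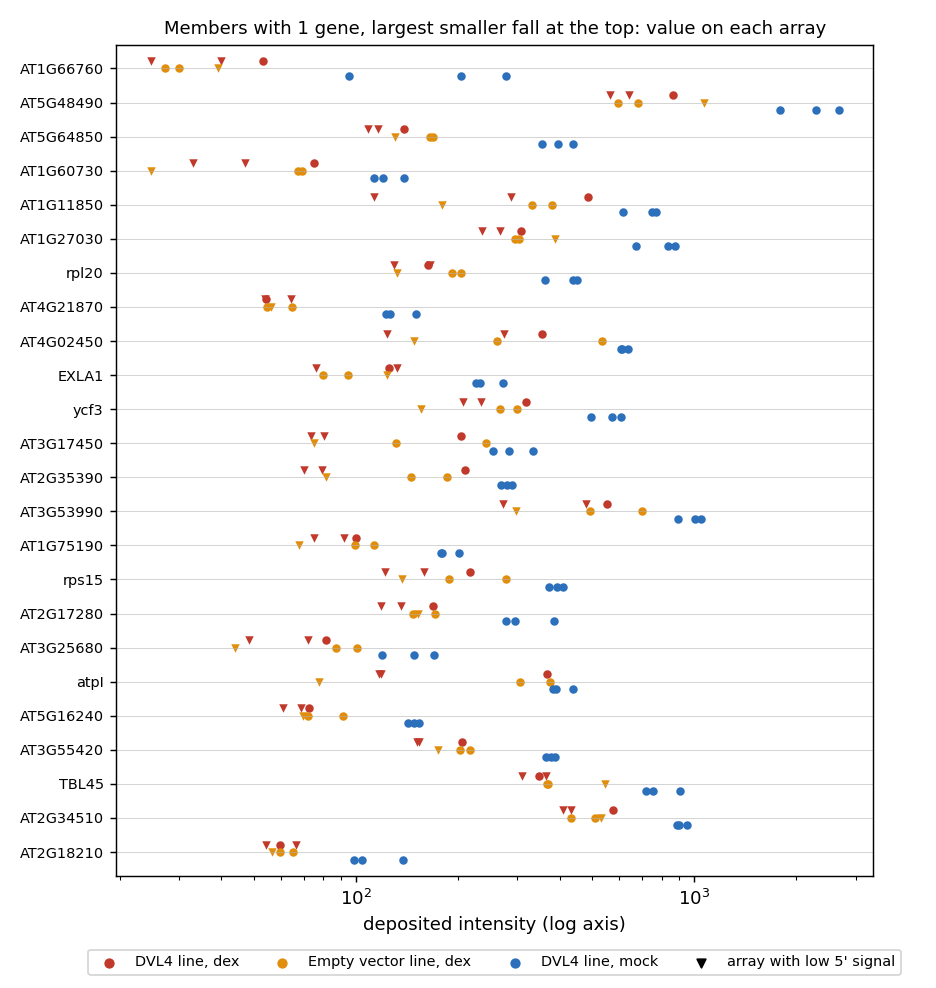
Deposited intensity (log axis) on each of the 9 arrays for the 24 members with 1 gene whose smaller difference from mock was largest, with DVL4 dex (red), empty vector dex (orange) and mock (blue) from top to bottom within each gene. Inverted triangles are the 3 low-5′ arrays. All mock points lie to the right of all dex points, and in atpI, AT3G17450 and AT2G35390 the 3 triangles lie far to the left of the other dex points.

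Genes of stress-linked proteins were among the members. AT4G21870, a small heat shock protein gene, had 64.1, 53.8 and 54.1 in DVL4 dex leaves, 56.2, 54.7 and 64.5 in empty vector dex leaves and 126, 123 and 150.1 in mock leaves. Its 6 dex values lay within a narrow band, and the differences were -1.21 ± 0.15 and -1.18 ± 0.15, or -1.29 and -1.16 without the low-5′ arrays. AT4G02450, which encodes a p23 type co-chaperone of HSP90, had 124, 273 and 354 in DVL4 dex leaves, 148, 534 and 261 in empty vector dex leaves and 608, 611 and 639 in mock leaves. Here the dex arrays spread widely while the mock arrays were nearly level, and the differences of -1.44 ± 0.46 and -1.17 ± 0.46 shrank to -0.81 and -0.73. AT3G53990, a universal stress protein gene, had 273, 479.5 and 552 in DVL4 dex leaves, 297, 701 and 490.2 in empty vector dex leaves and 893, 1050 and 1006 in mock leaves. Its lowest value in each dex group was on replicate 1, and it stood at -0.83 and -0.74 without the low-5′ arrays.

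Among cell wall genes, EXLA1, an expansin-like gene of the superfamily that loosens walls, had 76.3, 132 and 125 in DVL4 dex leaves, 123, 79.7 and 94.4 in empty vector dex leaves and 233, 226 and 273 in mock leaves. TBL45 belongs to the TRICHOME BIREFRINGENCE-LIKE family, in which several members acetylate wall polysaccharides. It had 308, 363 and 348 in DVL4 dex leaves, 545, 368 and 368 in empty vector dex leaves and 722, 753 and 907 in mock leaves. AT2G34510, of the DUF642 family of wall-located proteins, had 409, 433 and 576 in DVL4 dex leaves, 530.4, 432 and 507 in empty vector dex leaves and 904, 889 and 952 in mock leaves. On the arrays with high 5′ signal these genes stood at -0.96 and -1.49 (EXLA1), -1.18 and -1.10 (TBL45), and -0.67 and -0.97 (AT2G34510), so AT2G34510 in DVL4 dex came just short of 0.7.

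Protease genes formed a further group. The carboxypeptidase-like gene scpl48 had 278, 284 and 324 in DVL4 dex leaves, 334, 352 and 333 in empty vector dex leaves and 605, 574 and 538 in mock leaves. It had the smallest error of the named members, at -0.96 ± 0.09 and -0.75 ± 0.09, or -0.82 and -0.74 without the low-5′ arrays. The subtilase gene AT4G20430 had 88.1, 88.2 and 96.0 in DVL4 dex leaves, 92.9, 86.2 and 102 in empty vector dex leaves and 155, 165 and 151 in mock leaves. The aspartyl protease gene AT3G54400 had 315, 349 and 442 in DVL4 dex leaves, 643, 387 and 428 in empty vector dex leaves and 745, 731 and 1155 in mock leaves. The first replicate of the empty vector came near the mock arrays in AT3G54400, with a gap of 0.19 on the log2 scale. Leaving out the low-5′ arrays, AT4G20430 stood at -0.71 and -0.74 and AT3G54400 at -0.95 and -1.07.

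In lipid, nucleotide and sugar metabolism, AT5G16240, a gene for a stearoyl carrier protein desaturase, had 60.8, 68.9 and 72.5 in DVL4 dex leaves, 69.8, 72.0 and 91.4 in empty vector dex leaves and 143, 154 and 149 in mock leaves. AT2G17280, a phosphoglycerate mutase family gene, had 118, 136 and 169 in DVL4 dex leaves, 152, 171 and 147 in empty vector dex leaves and 278, 295 and 385 in mock leaves. Both kept differences of more than 0.8 without the low-5′ arrays, at -1.03 and -0.87 for AT5G16240 and -0.90 and -0.99 for AT2G17280. AT2G35390, which encodes a phosphoribosyl pyrophosphate synthetase, had 79.1, 69.9 and 210.0 in DVL4 dex leaves, 81.4, 186 and 145 in empty vector dex leaves and 280.0, 269 and 289 in mock leaves. Its 3 low-5′ values were the lowest, and without them it stood at -0.41 and -0.77. AT2G16380, a gene of the Sec14 family of phosphatidylinositol transfer proteins, was 2.09-fold lower in DVL4 dex and 1.64-fold lower in empty vector dex than in mock, with log2 differences of -0.73 and -0.61 without the low-5′ arrays.

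Among named members with a regulatory role, ORA47, an AP2/ERF factor gene that activates jasmonate synthesis genes, had 75.1, 82.3 and 97.9 in DVL4 dex leaves, 79.2, 121 and 57.9 in empty vector dex leaves and 129, 121 and 173 in mock leaves. Its second empty vector value nearly met its second mock value, and its differences were -0.72 ± 0.26 and -0.76 ± 0.26, or -0.51 and -0.73 without the low-5′ arrays. AT1G18810, of the PHYTOCHROME KINASE SUBSTRATE family that acts in light-directed growth, had 119, 212 and 154 in DVL4 dex leaves, 206, 148 and 223 in empty vector dex leaves and 315, 316 and 311 in mock leaves. Its mock values were level, while replicates within each dex group spread more widely, and it stood at -1.03 and -0.79 without the low-5′ arrays. AT2G30600, a BTB domain protein gene, had 41.5, 37.4 and 76.5 in DVL4 dex leaves, 40.2, 66.4 and 70.6 in empty vector dex leaves and 111, 99.4 and 78.1 in mock leaves. Leaving out the low-5′ arrays, it stood at -0.31 and -0.47.

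Of the 45 named members 6 are plastid-encoded, and the unnamed members were not assigned to a genome. The ribosomal protein genes rpl20 and rps15 encode proteins of the large and the small plastid ribosomal subunit. In rpl20 the values were 165, 129 and 163 in DVL4 dex leaves, 133, 204 and 192 in empty vector dex leaves and 438, 361 and 451 in mock leaves. In rps15 they were 159, 122 and 217 in DVL4 dex leaves, 137, 277 and 188 in empty vector dex leaves and 408, 373 and 391.9 in mock leaves. Both kept differences of 0.7 or more without the low-5′ arrays, at -1.35 and -1.07 for rpl20 and -0.85 and -0.77 for rps15. So did ycf3, an assembly factor of photosystem I, at -0.81 and -0.98. Its values were 207, 234 and 317 in DVL4 dex leaves, 155, 266 and 298 in empty vector dex leaves and 573, 495 and 607 in mock leaves.

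The other named plastid members, atpI, rbcL and rpoB, did not keep both differences of 0.7 or more on the arrays with high 5′ signal. For atpI, a subunit of the membrane part of the ATP synthase, the values were 117, 119 and 366 in DVL4 dex leaves, 77.9, 306 and 374 in empty vector dex leaves and 390.5, 382 and 439 in mock leaves. The low-5′ arrays held the 3 lowest values, and the DVL4 dex and empty vector values of replicate 3 came within 0.1 on the log2 scale of the lowest mock array. The Rubisco large subunit gene rbcL showed 487, 501 and 1118 in DVL4 dex leaves, 478, 969 and 1013 in empty vector dex leaves and 1466, 1144 and 1424 in mock leaves. For rpoB, a subunit of the plastid RNA polymerase, they were 28.9, 27.2 and 61.5 in DVL4 dex leaves, 40.6, 39.0 and 54.0 in empty vector dex leaves and 87.3, 67.2 and 85.9 in mock leaves. On the high 5′ arrays atpI stood at -0.14 and -0.25, rbcL at -0.26 and -0.43, and rpoB at -0.37 and -0.79.

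Of all 69 plastid probe sets with 1 gene, 11 were called lower in DVL4 dex than in mock, where 10.9% of all probe sets were, and 5 in empty vector dex, where 2.05% were. By the same limma fit 0 were called higher in either, and the median differences were -0.39 and -0.27. On the high 5′ arrays these medians were 0.01 and 0.05, and 2 of the 69, rpl20 and ycf3, were called lower in each dex group, beside 2.73% and 0.796% of all probe sets. In a limma fit with low-5′ status as a covariate beside group, 27 of the 69 were called lower in low-5′ arrays, against 1.44% of all probe sets, with a median of -0.65.

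The same fit shows where the members track 5′ signal. Their low-5′ effect had a median of -0.20 on the log2 scale, against 0.03 over all probe sets, and ran from -1.88 in atpI to 0.53 in an unnamed probe set. By limma 10 members were called lower in low-5′ arrays, where 1.44% of all probe sets were, and 0 higher, where 0.396% were. The effect is estimated within groups, but the rule acts on group means that hold these arrays, so the count is not independent of the selection.

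Beside 2 unnamed probe sets, the called members were atpI, AT3G49080, AT3G17450, AT2G35390, AT1G60730, rbcL, AT2G30600 and ycf3. AT3G49080, a gene for a mitochondrial ribosomal protein, had 40.5, 32.2 and 77.7 in DVL4 dex leaves, 29.0, 96.2 and 78.1 in empty vector dex leaves and 122, 96.8 and 113 in mock leaves. AT3G17450 had 80.5, 73.6 and 205 in DVL4 dex leaves, 75.3, 241 and 131 in empty vector dex leaves and 283, 254 and 333 in mock leaves. In both genes each low-5′ value lay below every other value, and without them AT3G49080 stood at -0.50 and -0.35 and AT3G17450 at -0.49 and -0.69. The calls used the low-5′ arrays themselves, so the next counts are a description. Of the 10 called members 2, ycf3 and AT1G60730, kept both differences of 0.7 or more without the low-5′ arrays, as did 53 of the 77 others. Among all members 8 had at least one difference under 0.35 then, and beside atpI, rbcL, AT2G30600 and AT3G49080 these were AT1G25500, AT2G39870, AT1G04660 and 1 unnamed probe set. How far 5′ signal contributes to any one of these differences was not tested.

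**Figure D3:**
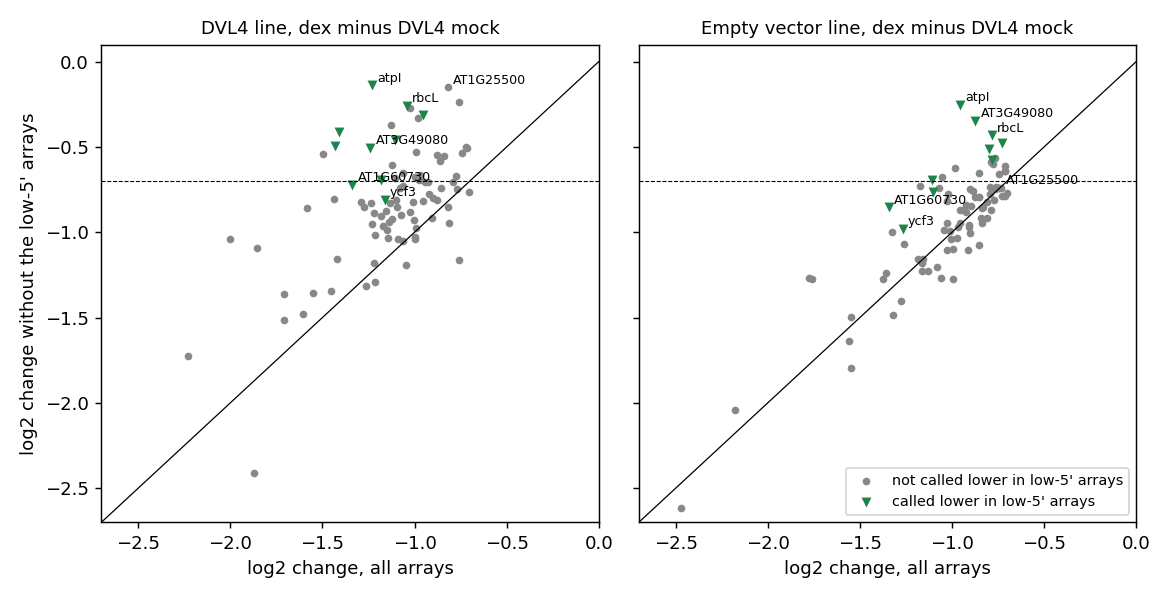
Log2 change against mock over all 9 arrays (x axis) and without the 3 low-5′ arrays (y axis), for DVL4 dex (left) and empty vector dex (right), 1 point per member. The solid line marks equal values and the dashed line -0.7, and green triangles are the 10 members called lower in low-5′ arrays, with atpI nearest to 0.

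Per array, the 10 called members had median values relative to the mock mean of -1.44, -1.65 and -0.48 in DVL4 dex replicates 1 to 3 and of -1.81, -0.49 and -0.66 in empty vector dex replicates 1 to 3. The other 77 members were more even, at -1.19, -1.12 and -0.85 in DVL4 dex and at -0.97, -0.96 and -0.91 in empty vector dex. In these 77 the dex arrays with high 5′ signal thus stood 0.85 or more below mock at the median. The rule placed every dex array below mock, and the low-5′ calls made the split. These profiles are therefore a description, and nothing is read from them.

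**Figure D4:**
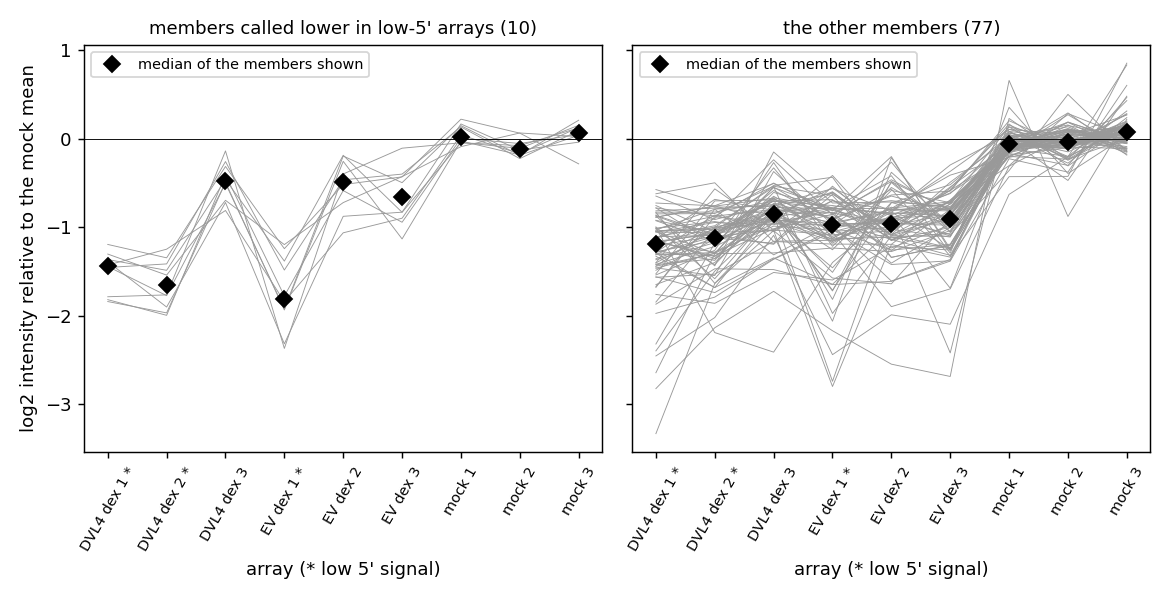
Log2 intensity relative to the mock mean on each array, with 1 grey line per member and black diamonds for their median, for the 10 members called lower in low-5′ arrays (left) and the other 77 (right). Asterisks mark low-5′ arrays, where the left diamonds lie between -1.44 and -1.81, while on the other dex arrays they lie between -0.48 and -0.66.

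Members near the fall limit were similar in size to probe sets just outside it. By the smaller of the 2 differences, AT2G16380, AT2G39870, ORA47 and AT1G18810 lay just inside at -0.71, -0.71, -0.72 and -0.73. AT5G24570, AT5G59050, AT5G44020 and AT2G27360, which met every other condition, lay just outside at -0.69, -0.68, -0.68 and -0.68.

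Other named members with the gene family known were AT1G80750 (ribosomal protein L7 family), AT1G25500 (a choline transporter-like gene) and AT1G04660 (a glycine-rich protein gene). They were 2.01-fold, 1.77-fold and 1.98-fold lower in DVL4 dex than in mock, and 1.70-fold, 1.67-fold and 1.71-fold lower in empty vector dex. Leaving out the low-5′ arrays, their log2 differences were -0.82 and -0.56 for AT1G80750, -0.15 and -0.74 for AT1G25500, and -0.33 and -0.60 for AT1G04660. AT5G53880, AT4G24130, AT2G23690, AT5G44010, AT1G68780, AT2G04795, AT1G69890 and AT2G39870 complete the named members, with log2 differences from -1.09 to -0.76 in DVL4 dex and from -0.85 to -0.71 in empty vector dex, or -1.19 to -0.24 and -0.91 to -0.64 without the low-5′ arrays. Over the 42 unnamed members the differences ran from -2.003 to -0.70 in DVL4 dex and from -2.18 to -0.70 in empty vector dex, with medians of -1.04 and -0.96. Ranked by the smaller of its differences, the first unnamed member had 49.0, 66.2 and 126 in DVL4 dex leaves, 49.5, 67.6 and 62.8 in empty vector dex leaves and 174, 233 and 479 in mock leaves. The next unnamed member had 237, 768 and 1164 in DVL4 dex leaves, 343, 1043 and 945 in empty vector dex leaves and 2307, 2568 and 2302 in mock leaves. In the first of these the mock arrays spread widely, and in the other the dex arrays of both groups did. The medians of the 45 named members were -1.14 and -0.91.

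Of the left-out genes, the type-A response regulator gene RR16 had 434, 471 and 574 in DVL4 dex leaves, 393, 376 and 532 in empty vector dex leaves and 805, 839.8 and 945 in mock leaves. XTH16, a xyloglucan endotransglucosylase gene, had 47.6, 53.9 and 51.8 in DVL4 dex leaves, 63.7, 52.9 and 46.7 in empty vector dex leaves and 101, 103 and 148 in mock leaves. In both genes all dex values lay below all mock values. Leaving out the low-5′ arrays, RR16 stood at -0.59 and -0.95 and XTH16 at -1.16 and -1.22.

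Pathway lists of leaf hormone, stress, light, wall and nutrient genes held 157 entries. Of these, 31 had a probe set listed with that gene alone and are called measured below. The other entries were not matched, since unnamed probe sets and those listed with several genes were not used. No named member was on any list, and the 42 unnamed members could not be matched. RR16 and XTH16, which were left out by name, are on the lists. Against mock, 17 of the 31 fell and 4 rose in DVL4 dex, and 7 fell and 3 rose in empty vector dex (called by limma, beside 10.9% and 2.05% of all probe sets called lower and 12.8% and 4.15% higher). With the low-5′ arrays left out, 5 fell and 2 rose in DVL4 dex, and 2 fell and 3 rose in empty vector dex, beside 2.73% and 0.796% of all probe sets called lower and 3.27% and 1.64% higher. The genes that were called then were UGT78D2, CHIL, AT1G06000, HYH, ARR15, GI and SAG29 in DVL4 dex and ARR15, AT5G61590, WRKY53, GI and SAG29 in empty vector dex. The lists were chosen with earlier results of these data known, so these counts are a description and nothing is read from them. The counts per list below are over all 9 arrays.

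In the flavonoid and anthocyanin list 7 of 8 measured genes fell in DVL4 dex and 2, UGT78D2 and CHIL, in empty vector dex, with medians of -2.55 and -1.03. Its gene DFR, an anthocyanin enzyme, had level dex groups far below mock on average. It had 9.12, 10.8 and 7.82 in DVL4 dex leaves, 14.6, 8.61 and 5.68 in empty vector dex leaves and 196, 14.3 and 171 in mock leaves. The second mock value lay below the highest dex value, which kept DFR out of the set.

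Both measured cytokinin response genes, ARR15 and RR16, fell in both dex groups, and so did EXO, the measured gene of the brassinosteroid list. Of 5 touch and early stress genes 3 fell in DVL4 dex, while 1 fell and 1 rose in empty vector dex. Of 9 expansin and xyloglucan endotransglucosylase genes 3 fell and 1 rose in DVL4 dex, and 1 fell in empty vector dex. In the clock and light list GI rose in both dex groups, by 3.58 in DVL4 dex and by 2.09 in empty vector dex on the log2 scale, and HYH fell in DVL4 dex. The time of day at harvest is not given in the sources used here, and its part in the members' differences was not tested. Of 2 sugar status genes SAG29 rose in both dex groups. SAG101, the measured salicylic acid defence gene, rose in DVL4 dex, and the measured wax gene WSD1 was called in neither (0.19 and -0.06). No gene of the nitrate and sulfate list could be matched to a probe set in the annotation used here, so that list was not analysed.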

How the data were processed

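The authors' deposited intensity values are dChip signals on a linear scale, per the labels and series text; no source used here gives the dChip version, model or settings. They cover 22810 probe sets on 9 arrays, of which 64 control probe sets were left out. No further normalization was applied, values under 5 were raised to 5 and log2 was taken. The number of arrays limits the precision.

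Groups and replicate numbers came from sample titles. Same-numbered arrays of different groups correlated at -0.15 to 0.14 in their deviations from group means, with 2 of 9 pairs above 0.1, so the numbers were not taken to pair samples.

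Probe sets were named from the platform annotation, with symbols updated through RefSeq gene IDs (TAIR10.1). It lists 13513 with 1 gene, 503 with several and leaves 8730 unnamed here. Short notes on gene function are general knowledge.

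Differences were fitted in R 4.3.3 with limma 3.58.1 (lmFit, eBayes with trend=TRUE, group as the only factor, 2-sided, Benjamini-Hochberg over 22746 probe sets, threshold 0.05). Errors on log2 differences are limma's standard errors. The steps were tested on simulated data. Plots used matplotlib 3.10.9 in Python 3.11.15. The members and lists were chosen with earlier results of these data known. Any member with 1 gene could be named, and values of all arrays were given for the 24 with the largest smaller difference and for others chosen after their values were seen. A listed gene was taken by its brightest probe set. Alternatives covered floors, scaling, the limits of the rule, limma options, each array left out, the replicate block and the arrays whose dap signal at 5′ was under 0.5 of that at 3′. List and plastid counts without the low-5′ arrays were added after seeing the data. Promoter motifs were planned but not analysed here.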

Additional observations from a re-analysis of the deposited data

How the results depend on the processing

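The number of members stayed within 1.5 times of 87 (62 to 119) except with a fall limit of 0.6, which gave 134, and ran from 80 to 134 when single arrays were left out, the highest without empty vector dex replicate 2. Without the low-5′ arrays 102 probe sets met the rule and 49 of them were members, which is 48.0% of those 102 and 56.3% of the 87. Of the 55 members that kept both differences 6 then had dex groups 0.4 or more apart. The counts called lower against mock were 30 (DVL4 dex) and 36 (empty vector dex) without the low-5′ arrays, with 1 DVL4 dex array assumed to vary like the other groups. With low-5′ status as a covariate they were 58 and 57. Leaving out single arrays gave 58 to 83 and 29 to 60. The median difference from mock in DVL4 dex was -0.82 without the low-5′ arrays, and that between the dex groups turned to 0.054. For that comparison 1 member was called with array weights and 0 to 2 when single arrays were left out. With the replicate number as a block 79 and 59 members were called lower against mock, beside 2365 and 424 of all probe sets. Between the dex groups that fit called 0 members, beside 1108 probe sets lower and 913 higher. No pairing was assumed. All differences of the 45 named members from mock kept their sign in every setting of floor, scaling and arrays left out. For the floors and the arrays left out, the rule's separation of arrays had fixed this in advance. Of all values compared with the main setting, 42 moved, against 1308 that did not. Differences were judged by the spread between replicates. For counts, which have no such spread, 134 members against 87 was taken as moved and 119 as not.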

Other observations

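The rule used the values of all 9 arrays, so counts of which array stood highest or lowest in the members are a description. Nothing is read from them. Replicate 3 was the highest mock array in 45 of the 87, against 34.9% of the 11253 probe sets with a mock mean above 80, and replicate 1 in 18, against 38.6%. Among the 6 dex arrays the lowest value was on a low-5′ array in 75 members, against 48.1% of those probe sets. The mirrored rule asked for all dex arrays above all mock arrays. Its brightness condition was a mean of the 6 dex arrays above 80, in place of the mock mean. In all 104 probe sets met the mirrored rule. Of these 74 kept both differences of 0.7 or more without the low-5′ arrays. Limma called 0 of the 104 lower and 1 higher in low-5′ arrays, beside 1.44% and 0.396% of all probe sets.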
